A study of Mus musculus with 10 samples.

Results

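The collagen gene family apart from collagen VI was examined in bulk RNA from mouse melanoma tumours. Members were the protein-coding genes of the count table whose symbol in the GRCm38 annotation is Col, a number, a and a number, leaving out those that start with Col6a. This gave 38 of 52636 gene rows, with 11 fibrillar chains, 6 basement membrane (collagen IV) chains and 21 chains of other classes. There were 6 tumours with Arf6Q67L on a BrafCA;Cdkn2af/f background and 4 control tumours of BrafCA;Cdkn2af/f alone. Arf6Q67L encodes ARF6, a small GTPase of membrane traffic, locked in its active state. BrafCA turns oncogenic once Cre acts on it, and Cdkn2af/f is the floxed form of a tumour suppressor gene, so controls carry these alleles too. The labels name no Cre driver, age, sex, litter or batch, and they do not say whether each tumour came from its own animal. The p-values thus set the genotype difference against the spread between these tumours. Should tumours share an animal, the p-values could overstate the evidence.

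Total counts lay between 31372896 and 37918116 in Arf6Q67L libraries and between 28635414 and 40869091 in control libraries. Values are CPM, counts scaled to library size with TMM factors, and a count of 0 allows up to 3 counts, which is 0.0734 to 0.105 CPM across the libraries and covers counting error only. Arf6 itself lay between 74.7 and 130.1 CPM in Arf6Q67L tumours and between 68.6 and 106 CPM in controls, and gene counts cannot show the base change. The pigment cell markers Tyr, Dct, Mlana and Tyrp1 had at most 3 counts in every library, while Mitf stood at 16.98 ± 5.57 CPM in Arf6Q67L tumours (SD, n = 6) and 16.6 ± 4.18 CPM in controls (SD, n = 4). Of the other listed markers, Pmel lay between 0.524 and 0.940 CPM, and Sox10 reached 2.83 CPM in Arf6Q67L tumour 6 and 1.27 CPM in control 3. Control 4 stood apart from the other tumours, at 101 on the first principal component (25.8% of variance) against -53.3 to 52.6 for the rest. It had the highest summed T cell markers (206 CPM), macrophage markers (1533 CPM) and skeletal muscle markers (772 CPM), and the lowest summed fibroblast markers (722 CPM). Not every marker followed its sum. Ckm, Atp2a1 and Ryr1 were highest in Arf6Q67L tumour 5, Cd4 in control 2 and Mertk in Arf6Q67L tumour 1. Of the fibroblast markers, Pdgfra and Thy1 were lowest in control 4, while Mfap5 was at 53.4 CPM there, close to its highest value (53.6 CPM). Without control 4 the fold change of 12 of the 32 tested collagen genes changed sign. The identifiers number the Arf6Q67L libraries before the controls, so genotype and that order cannot be told apart.

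Collagens are secreted proteins whose chains wind around each other into a triple helix. Fibrillar collagens are trimmed outside the cell and pack into the cables that give skin its strength, and collagen IV assembles into the sheet-like networks of basement membranes under epithelia and around vessels, muscle and nerve. Other classes decorate fibrils, bridge them to basement membranes, or span the cell membrane. In skin most fibrillar collagen comes from fibroblasts, while endothelial cells, pericytes and many tumour cells also make collagen IV. Since these were bulk tumours, fewer cells of a type and less RNA per cell cannot be told apart.

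Collagen levels varied widely among tumours of the same genotype, and no collagen gene passed the adjusted threshold between genotypes in edgeR. Of the 38 members, 32 had enough counts to be tested in edgeR, and 0 of these reached an adjusted p under 0.05 in its quasi-likelihood test, as did 0.0% of 17286 genes tested. At an unadjusted p under 0.05 there were 2 members, Col11a2 and Col9a3, against 11.7% of all genes. Both were lower in Arf6Q67L tumours, where the background was 7.05%, and 0 members were higher, where it was 4.65%. In DESeq2, 1 of 33 members with an adjusted p passed, Col11a2, against 2.06% of all genes in either direction and 1.28% lower. The groups did not overlap in 1 member, again Col11a2, against 2.44% of all genes in either direction and 1.28% with Arf6Q67L below control. These counts are near or below the background shares. The median log2 fold change (Arf6Q67L over control) over the 32 members was -0.0087, against -0.0018 over all genes, with 14 members above 0 and 18 below.

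Spread within the family was wide. The standard deviation of log2 CPM over the 10 tumours had a median of 1.10 over the 32 members, against 0.35 over all genes tested, and lay above that all-gene median in 30 of the 32. In 15 members the highest tumour was at least 10 times as high as the lowest. Col22a1 and Col26a1 were left out of this count, since their lowest tumour had 0 counts, and they reached 6.63 and 6.61 CPM. Control 4 was the lowest tumour for 11 members and the highest for 3, while Arf6Q67L tumour 4 was the highest for 7 and the lowest for 0.

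**Figure D1:**
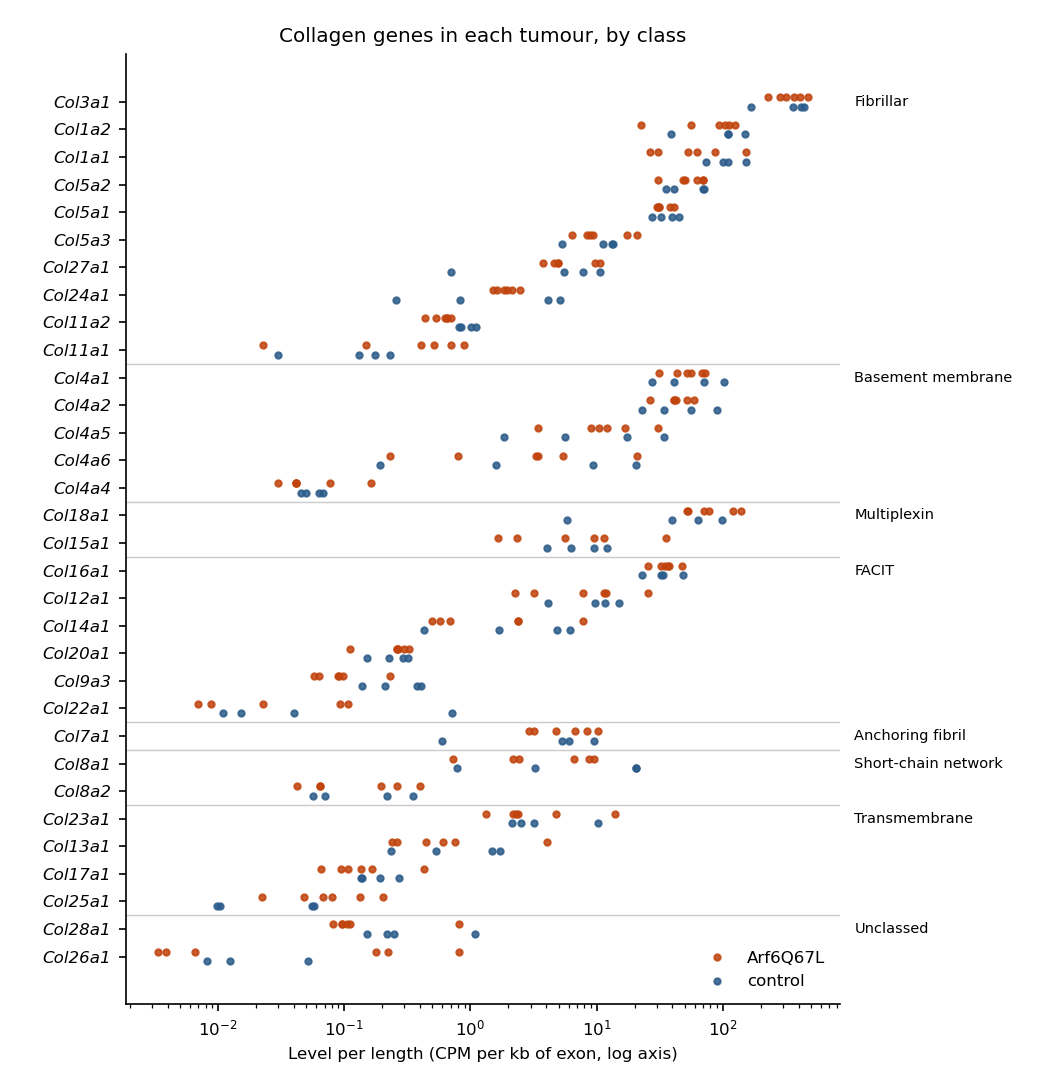
Level of each tested collagen gene per tumour, in CPM per kb of exon on a log axis, with Arf6Q67L tumours (6 points) drawn above control tumours (4 points) and genes grouped by class. Points of the genotypes overlap in 31 of 32 genes, and Col3a1 lies highest (values of 0 for Col22a1 and Col26a1 cannot be drawn).

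Summed over the 38 members, collagen transcripts took 0.812% ± 0.194 of all counts in Arf6Q67L tumours (SD, n = 6) and 0.820% ± 0.204 in controls (SD, n = 4). Single tumours ran from 0.614% to 1.12% in the Arf6Q67L group. Controls 1 to 4 stood at 0.757, 0.967, 0.996 and 0.559%. Thus the ranges overlapped, and the group means differed by less than the spread between tumours. Exon length here is all bases in any annotated exon of a gene, 12.4 kb for Col1a2, 9.82 kb for Col3a1 and 6.56 kb for Col1a1. It can exceed the length of the main transcript, so levels and shares per kb are approximate. Scaled to exon length, the fibrillar class made up 67.8% ± 9.03 of summed collagen CPM per kb in Arf6Q67L tumours (SD, n = 6) and 71.2% ± 6.28 in controls (SD, n = 4). The basement membrane class followed with 13.2% ± 2.699 in Arf6Q67L tumours and 14.9% ± 5.31 in controls (SD). The multiplexins, which link basement membranes to the stroma, varied widely, with a high of 23.1% in Arf6Q67L tumour 3 and a low of 2.43% in control 4.

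**Figure D2:**
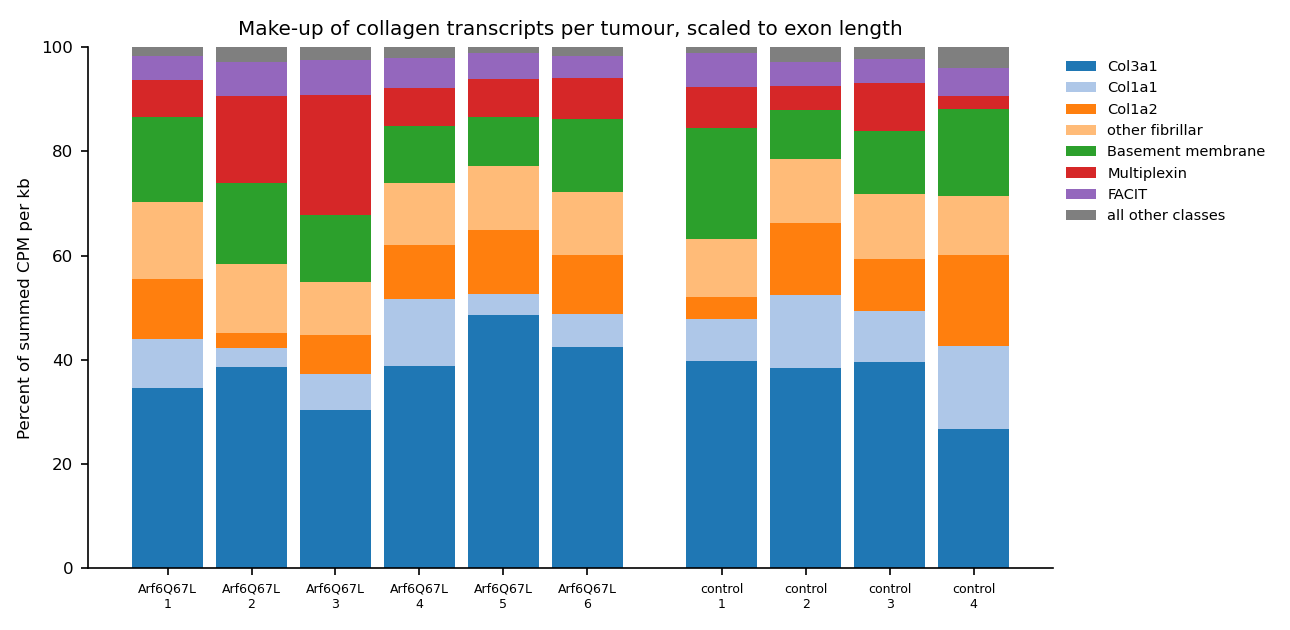
Share of summed collagen CPM per kb of exon (percent) taken by each class or gene in each tumour, Arf6Q67L tumours on the left and controls on the right. Col3a1 is the largest single part in every tumour, with its highest share in Arf6Q67L tumour 5 (48.6%) and its lowest in control 4 (26.7%).

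Among the fibrillar chains, 4 of 10 tested were higher and 6 lower by fold change in Arf6Q67L tumours, the median being -0.050 on the log2 scale, and none passed in edgeR. Col3a1, the single chain of type III collagen found in pliable tissues such as young skin and vessel walls (chromosome 1, 45311538 to 45349706), was the most abundant collagen per length, at 348 ± 87.6 CPM per kb in Arf6Q67L tumours (SD, n = 6) and 348 ± 125 CPM per kb in controls (SD, n = 4). In CPM it lay between 2263 and 4618 CPM in Arf6Q67L tumours, with a median of 3359 CPM. In controls 1 to 4 it stood at 3540.0, 4131, 4328 and 1647 CPM. Levels thus overlapped, with control 4 lowest of all 10 tumours. Arf6Q67L over control came to -0.00017 ± 0.28 (SE) on the log2 scale (edgeR adjusted p = 1), and without control 4 the fold change was -0.22 on that scale.

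Col1a1 and Col1a2 encode the chains of type I collagen, the main collagen of skin and bone. Col1a1 (chromosome 11, 94936224 to 94953042) lay between 175 and 1011 CPM in Arf6Q67L tumours, with a median of 379 CPM. The controls, tumours 1 to 4, were at 486, 1004, 719.7 and 660.3 CPM. Tumours 2, 3, 5 and 6 of the Arf6Q67L group were below every control, but tumour 4 was the highest of all 10. edgeR gave a log2 fold change of -0.66 ± 0.46 (SE, adjusted p = 0.608), which stayed negative whichever 1 tumour was left out. The difference of mean log2 CPM was -0.88, at a two-sided exact permutation p of 0.143. Col1a2 lay between 281 and 1569.6 CPM in Arf6Q67L tumours, with a median of 1228 CPM. Control tumours 1 to 4 gave 483, 1876, 1376 and 1364 CPM. Arf6Q67L tumour 2 and control 1 were the low tumours, and edgeR gave -0.26 ± 0.47 (SE) on the log2 scale (adjusted p = 0.866).

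The type V chains help to start fibrils and set their width. Col5a2 lay between 294 and 669 CPM in Arf6Q67L tumours, with a median of 540.1 CPM. Controls 1 to 4 had 397, 683, 671 and 340.2 CPM. Its log2 fold change was 0.019 ± 0.27 (SE). Col5a1 was the steadiest collagen. It lay between 255 and 352 CPM in Arf6Q67L tumours, with a median of 266 CPM. In controls 1 to 4 it stood at 277, 386, 334 and 234 CPM. The highest tumour was only 1.65 times the lowest, and the log2 fold change was -0.10 ± 0.15 (SE). Col5a3 stood at 81.04 ± 39.6 CPM in Arf6Q67L tumours (SD, n = 6) and 74.3 ± 26.3 CPM in controls (SD, n = 4). The groups overlapped in all 3 chains, with edgeR adjusted p-values of 0.989 for Col5a2, 0.839 for Col5a1 and 0.929 for Col5a3. Without control 4 the fold changes were -0.13 for Col5a2, -0.20 for Col5a1 and -0.093 for Col5a3 on the log2 scale.

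Col11a2 encodes a chain of type XI collagen, a minor partner of cartilage fibrils (chromosome 17, 34039437 to 34066685). It lay between 3.01 and 4.85 CPM in Arf6Q67L tumours, with a median of 4.42 CPM. The controls, tumours 1 to 4, were at 6.998, 7.64, 5.57 and 5.804 CPM. All 6 Arf6Q67L tumours were below all 4 controls. The means were 4.15 ± 0.678 CPM in Arf6Q67L tumours (SD, n = 6) and 6.502 ± 0.983 CPM in controls (SD, n = 4), and the log2 fold change was -0.65 ± 0.19 (SE). The edgeR adjusted p was 0.283, so it missed the threshold over all genes, while DESeq2 gave -0.64 (SE 0.18) with an adjusted p of 0.0227. The two-sided exact permutation p was 0.00476, the smallest that 210 splits of the tumours can give. It is not adjusted and largely restates the lack of overlap, which 2.44% of all genes shared in either direction. Leaving out 1 tumour at a time moved the fold change between -0.71 and -0.56, with edgeR adjusted p-values from 0.275 to 0.559. At 0.604 CPM per kb in Arf6Q67L tumours and 0.946 in controls it was a minor transcript. The partner chain Col11a1 had a fold change of the opposite sign. Col11a1 lay between 0.287 and 11.4 CPM in Arf6Q67L tumours, with a median of 5.89 CPM, against 0.380, 1.67, 2.26 and 2.92 CPM in controls 1 to 4. Arf6Q67L tumours 1, 2, 4 and 6 were above every control and tumour 3 was below every control. By edgeR the log2 fold change was 1.66 ± 0.86 (SE) at an adjusted p of 0.481.

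Markers of cartilage cells were set beside these genes, since type XI and type IX collagens are best known from cartilage. Summed over Acan, Matn1, Comp, Chad and Sox9 they ran from 22.8 to 95.5 CPM in Arf6Q67L tumours and from 28.9 to 58.00 CPM in controls, and most of the sum was Sox9, which other cells also express. Of the 4 markers tested, 2 were positive and 2 negative, with a median of 0.49 on the log2 scale. Acan, the main proteoglycan of cartilage, had 2.52 ± 1.55 (SE) and Comp, a cartilage matrix protein, 1.04 ± 0.84 (SE), while Sox9 had -0.057 ± 0.43 (SE) and Chad, a further matrix protein, -1.13 ± 0.29 (SE). Single tumours weighed heavily in the positive values. Acan was at 7.80 CPM in Arf6Q67L tumour 4 and 0 in tumours 5 and 6, and Comp reached 3.09 CPM in Arf6Q67L tumour 2. Chad stood at 0.494 ± 0.0894 CPM in Arf6Q67L tumours (SD, n = 6) and 1.08 ± 0.435 CPM in controls (SD, n = 4), with adjusted p-values of 0.255 in edgeR and 0.0423 in DESeq2. Matn1, the most cartilage-restricted marker, did not reach the low-count filter. Whether cartilage-like cells take part in the Col11a2 difference was not tested. Col2a1, the main collagen of cartilage, had at most 14 counts in any library and was not tested.

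The other minor fibrillar chains were Col24a1 and Col27a1. Col24a1 lay between 11.5 and 18.7 CPM in Arf6Q67L tumours, with a median of 14.4 CPM. Control tumours 1 to 4 gave 31.7, 6.26, 39.4 and 1.95 CPM. Controls 1 and 3 were thus above all Arf6Q67L tumours and controls 2 and 4 below all of them, so that the Arf6Q67L values fell in the gap. The log2 fold change was -0.44 ± 0.64 (SE), which was 0.13 without control 3 and -0.82 without control 4. Col27a1 was at 9.19 CPM in control 4, with the other 9 tumours between 49.1 and 139.8 CPM. Its log2 fold change was 0.059 ± 0.59 (SE), and without control 4 it was -0.31 on that scale.

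**Figure D3:**
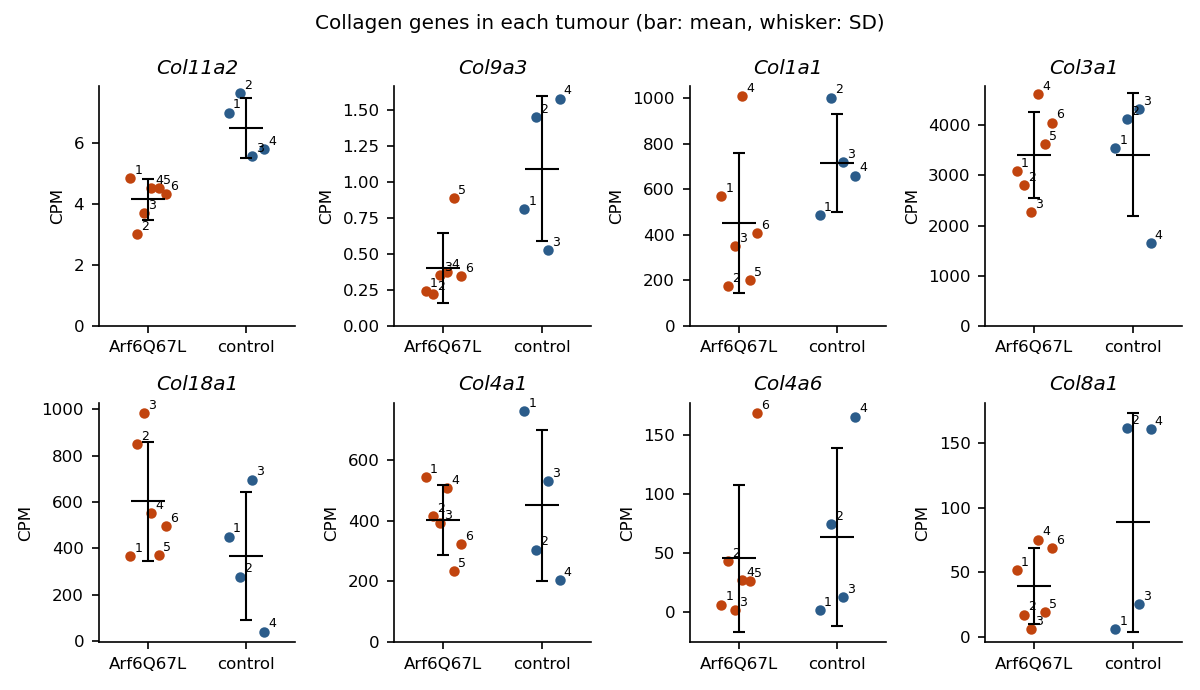
CPM of 8 collagen genes in each tumour, Arf6Q67L on the left and control on the right of each panel, with tumour numbers beside the points and bars for mean and SD (n = 6 and n = 4). Col11a2 is the panel without overlap (3.01 to 4.85 CPM against 5.57 to 7.64 CPM), and control 4 is lowest for Col3a1, Col18a1 and Col4a1.

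Of the basement membrane chains, 5 of 6 were tested, 1 with a positive and 4 with a negative fold change and a median of -0.16 on the log2 scale. The 6 genes sit in head-to-head pairs on 3 chromosomes. Col4a1 (chromosome 8, 11198423 to 11312826, minus strand) and Col4a2 (chromosome 8, 11312805 to 11449287, plus strand) encode the chains found in nearly all basement membranes, and their annotated ends overlap by 22 bases. In RefSeq (GRCm38.p6) their start sites lie 21 bases apart, so 1 window of 300 bases holds both. The starts of Col4a6 and Col4a5 on chromosome X lie 1343 bases apart. These windows, from 250 bases before each start to 50 after it, are shown for the pairs in which both genes were tested. Whether the spacing or the bases bear on how closely the counts of a pair moved together was not tested. Capitals mark matches to CCAAT and GGGCGG on either strand (ATTGG and CCGCCC on the other), and TATAAA was searched likewise.
Col4a2 (chr8:11312555-11312854, plus strand): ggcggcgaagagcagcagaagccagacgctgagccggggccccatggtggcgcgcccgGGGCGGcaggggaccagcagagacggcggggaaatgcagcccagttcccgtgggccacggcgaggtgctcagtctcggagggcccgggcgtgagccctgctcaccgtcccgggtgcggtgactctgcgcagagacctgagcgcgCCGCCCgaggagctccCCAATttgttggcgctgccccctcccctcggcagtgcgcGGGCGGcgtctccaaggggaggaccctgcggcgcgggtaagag
Col4a5 (chrX:141475169-141475468, plus strand): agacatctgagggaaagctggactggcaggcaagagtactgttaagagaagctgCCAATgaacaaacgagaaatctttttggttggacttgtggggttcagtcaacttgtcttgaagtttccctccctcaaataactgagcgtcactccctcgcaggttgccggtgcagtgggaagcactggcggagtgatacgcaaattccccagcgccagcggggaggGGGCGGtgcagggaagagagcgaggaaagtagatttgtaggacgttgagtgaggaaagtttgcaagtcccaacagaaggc
Col4a6 (chrX:141474027-141474326, minus strand): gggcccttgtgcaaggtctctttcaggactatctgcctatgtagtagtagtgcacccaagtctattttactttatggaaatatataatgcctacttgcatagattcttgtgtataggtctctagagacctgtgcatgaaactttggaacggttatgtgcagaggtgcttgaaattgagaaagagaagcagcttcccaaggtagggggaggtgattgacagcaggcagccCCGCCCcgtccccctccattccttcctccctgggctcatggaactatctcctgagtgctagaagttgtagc

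The window shared by Col4a1 and Col4a2 held 1 CCAAT and 3 GGGCGG matches at 73.7% GC. That of Col4a5 held 1 of each at 52.7% GC, and that of Col4a6 had 1 GGGCGG and 0 CCAAT matches at 48.3% GC. None of these 3 windows held TATAAA. Among 32851 RefSeq promoter windows of this length, 37.4% held CCAAT, 35.7% GGGCGG and 13.6% TATAAA. In the 31 windows of the 29 members listed there, 12 held CCAAT, 18 GGGCGG and 5 TATAAA. Such matches are letters in a window, not sites.

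Col4a1 lay between 235 and 543 CPM in Arf6Q67L tumours, with a median of 404 CPM. Controls 1 to 4 had 759.7, 305, 531 and 205 CPM. Col4a2 lay between 176 and 395 CPM in Arf6Q67L tumours, with a median of 278 CPM. In controls 1 to 4 it stood at 596, 227, 368 and 152 CPM. In both genes control 1 was the highest and control 4 the lowest tumour, so the Arf6Q67L tumours lay inside the control range. The log2 fold changes were -0.16 ± 0.35 (SE) for Col4a1 and -0.21 ± 0.35 (SE) for Col4a2, with edgeR adjusted p-values of 0.892 and 0.854. Both turned positive without control 1, at 0.22 and 0.22, and stood at -0.39 and -0.44 without control 4. Summed endothelial markers, a candidate source of collagen IV, were also highest in control 1 (322 CPM). They ran from 80.9 to 273 CPM in Arf6Q67L tumours and from 134 to 322 CPM in controls. Their lowest sum was in Arf6Q67L tumour 5, not in control 4 (134 CPM), and Cdh5 was highest in Arf6Q67L tumour 1 (184 CPM). Summed pericyte and smooth muscle markers, another candidate source, were at 202 CPM in control 1, the lowest of the controls. The part of either list in the collagen IV levels was not tested.

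Col4a5 and Col4a6 build the collagen IV of skin and smooth muscle basement membranes and varied much more. Col4a6 lay between 1.85 and 168 CPM in Arf6Q67L tumours, with a median of 26.8 CPM. The controls, tumours 1 to 4, were at 1.52, 74.4, 12.7 and 165 CPM. The highest tumour, Arf6Q67L tumour 6, was 110.4 times the lowest, control 1. Arf6Q67L tumour 6 and control 4 were alike in being high, and Arf6Q67L tumour 3 and control 1 in being low, so the spread ran across genotypes. edgeR put the log2 fold change at -0.48 ± 1.24 (SE), adjusted p = 0.914, and without control 4 the fold change was 0.65 on that scale. Col4a5 lay between 22.99 and 207 CPM in Arf6Q67L tumours, with a median of 76.3 CPM. Control tumours 1 to 4 gave 12.5, 116, 38.1 and 229.5 CPM, with the same highs in Arf6Q67L tumour 6 and control 4. Its log2 fold change was -0.10 ± 0.75 (SE), and without control 4 it was 0.75 on that scale. The kidney-type chains were barely detected. Col4a4 lay between 0.319 and 1.74 CPM in Arf6Q67L tumours, with a median of 0.442 CPM, against 0.482, 0.723, 0.529 and 0.671 CPM in controls 1 to 4, with 0.22 ± 0.48 (SE) on the log2 scale. Col4a3 had at most 12 counts in a library and was not tested.

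The multiplexins Col18a1 and Col15a1 were both positive. Col18a1, the source of the fragment endostatin (chromosome 10, 77052178 to 77166548), stood at 85.96 ± 36.5 CPM per kb in Arf6Q67L tumours (SD, n = 6) and 52.2 ± 39.5 CPM per kb in controls (SD, n = 4). It lay between 368 and 983 CPM in Arf6Q67L tumours, with a median of 523 CPM. Controls 1 to 4 had 451, 278, 697 and 40.7 CPM. Control 4 was far below all other tumours, and Arf6Q67L tumours 2 and 3 were above all controls. Arf6Q67L over control came to 0.72 ± 0.61 (SE) on the log2 scale (edgeR adjusted p = 0.693), and without control 4 the fold change was 0.35 on that scale. Col15a1 lay between 10.6 and 225 CPM in Arf6Q67L tumours, with a median of 48.3 CPM, against 39.7, 76.7, 25.6 and 60.2 CPM in controls 1 to 4. Arf6Q67L tumour 3 set its upper end. On the log2 scale the fold change of 0.47 ± 0.77 (SE) became -0.36 without that tumour.

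The fibril-associated (FACIT) collagens bind the surface of fibrils. Of 9, 6 were tested, 3 positive and 3 negative, with a median of -0.21. Col16a1 was the most abundant per length, at 35.7 ± 7.12 CPM per kb in Arf6Q67L tumours (SD, n = 6) and 34.4 ± 10.7 CPM per kb in controls (SD, n = 4). It lay between 172 and 319 CPM in Arf6Q67L tumours, with a median of 241 CPM, against 329, 218, 229 and 154 CPM in controls 1 to 4, and its log2 fold change was 0.051 ± 0.21 (SE). Without control 4 that was -0.094, and without control 1 it was 0.27. Col12a1 ranged more widely. It lay between 34.2 and 393 CPM in Arf6Q67L tumours, with a median of 146 CPM. In controls 1 to 4 it stood at 149, 177, 230.4 and 62.6 CPM. Arf6Q67L tumour 4 was the highest and tumours 3 and 5 were below every control, and the log2 fold change was 0.031 ± 0.63 (SE), or -0.48 without tumour 4 and -0.22 without control 4. Col14a1 lay between 3.46 and 54.5 CPM in Arf6Q67L tumours, with a median of 10.8 CPM, against 3.02, 33.9, 11.8 and 43.1 CPM in controls 1 to 4, with a log2 fold change of -0.46 ± 0.89 (SE) that was 0.059 without control 4.

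Col9a3, a chain of the cartilage collagen IX, was the other member with an unadjusted p under 0.05. It lay between 0.221 and 0.885 CPM in Arf6Q67L tumours, with a median of 0.347 CPM. The controls, tumours 1 to 4, were at 0.811, 1.45, 0.529 and 1.58 CPM. In 5 of 6 Arf6Q67L tumours it was below all controls, while tumour 5 lay inside their range. By edgeR the log2 fold change was -1.42 ± 0.44 (SE) at an adjusted p of 0.309, and the DESeq2 adjusted p was 0.093. The difference of mean log2 CPM was -1.32, at a two-sided exact permutation p of 0.0286. The level rests on 226 counts over all 10 libraries, and Tcfl5, with 19 counts, overlaps it by 234 bases of exon on the opposite strand. Its partner Col9a2 had at most 9 counts and Col9a1 at most 5 in a library, so neither was tested. Col22a1, a collagen of tissue junctions such as muscle and tendon, reached 6.63 CPM in control 2 and at most 0.993 CPM elsewhere. Its log2 fold change of -2.30 ± 1.31 (SE) was 0.85 without control 2. Col20a1 stood at 1.31 ± 0.383 CPM in Arf6Q67L tumours (SD, n = 6) and 1.27 ± 0.388 CPM in controls (SD, n = 4). A gene model on the same strand, with 3648 counts against its 441, overlaps 79 bases of its exons, so the level of Col20a1 is uncertain. Col19a1 had at most 13 counts in a library and was not tested.

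Col7a1 forms the fibrils that anchor the epidermis to the dermis. It lay between 29.99 and 105 CPM in Arf6Q67L tumours, with a median of 58.97 CPM. Control tumours 1 to 4 gave 55.2, 62.7, 97.6 and 6.14 CPM. Control 4 was again lowest, and the log2 fold change of 0.16 ± 0.61 (SE) was -0.21 without it. Keratinocyte markers, which mark the usual epidermal source, were near 0, with a summed level from 3.86 to 6.41 CPM in Arf6Q67L tumours and from 4.39 to 6.27 CPM in controls that was mostly Krt10. Krt5, Krt14, Krt1 and Trp63 did not reach the low-count filter.

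Of the short-chain network collagens, Col8a1, a component of vessel walls and of the corneal basement membrane, lay between 5.68 and 75.4 CPM in Arf6Q67L tumours, with a median of 35.5 CPM. Controls 1 to 4 had 6.09, 162, 25.4 and 161 CPM. Controls 2 and 4 were the highest tumours and control 1 was among the lowest. edgeR put the log2 fold change at -1.16 ± 0.89 (SE), adjusted p = 0.651. It was -0.69 without control 2 and -0.68 without control 4. Col8a2 lay between 0.189 and 1.79 CPM in Arf6Q67L tumours, with a median of 0.587 CPM, against 0.254, 1.57, 0.317 and 0.973 CPM in controls 1 to 4, with a log2 fold change of -0.016 ± 0.73 (SE). Col10a1, a marker of hypertrophic cartilage, had at most 11 counts in a library and was not tested.

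The transmembrane collagens act at cell contacts and can be shed. Col23a1 lay between 7.66 and 80.9 CPM in Arf6Q67L tumours, with a median of 13.4 CPM, against 12.3, 18.2, 58.8 and 14.5 CPM in controls 1 to 4. Arf6Q67L tumour 2 and control 3 stood out as high, and the log2 fold change was -0.0013 ± 0.71 (SE). Col13a1, found at adhesion sites and the neuromuscular junction, lay between 1.09 and 18.5 CPM in Arf6Q67L tumours, with a median of 2.42 CPM, against 6.87, 2.45, 7.96 and 1.07 CPM in controls 1 to 4, with a log2 fold change of 0.082 ± 0.88 (SE) that was -1.10 without Arf6Q67L tumour 3. Col17a1, the hemidesmosome collagen of basal keratinocytes, stood at 1.001 ± 0.803 CPM in Arf6Q67L tumours (SD, n = 6) and 1.11 ± 0.378 CPM in controls (SD, n = 4). Col25a1 lay between 0.287 and 2.62 CPM in Arf6Q67L tumours, with a median of 0.953 CPM. In controls 1 to 4 it stood at 0.127, 0.723, 0.740 and 0.134 CPM. In 4 of 6 Arf6Q67L tumours it was above every control, and edgeR gave 1.47 ± 0.72 (SE) on the log2 scale (adjusted p = 0.459). The difference of mean log2 CPM was 1.40, at a two-sided exact permutation p of 0.0905. Col25a1 rests on 307 counts over the 10 libraries.

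Both unclassed members were low and were carried by few tumours. Col26a1 lay between 0.0276 and 6.61 CPM in Arf6Q67L tumours, with a median of 0.756 CPM. The controls, tumours 1 to 4, were at 0.101, 0, 0.423 and 0.0671 CPM. Arf6Q67L tumours 4, 5 and 6 were above every control and tumours 1, 2 and 3 were below the level that a count of 0 allows, as were controls 2 and 4. edgeR fitted 3.496 ± 1.64 (SE) on the log2 scale (adjusted p = 0.446). Col28a1, a collagen of peripheral nerve, reached 4.01 CPM in tumour 4 of the Arf6Q67L group and 5.37 CPM in control 4, with the other 8 tumours between 0.400 and 1.22 CPM. Its log2 fold change was -0.98 ± 0.83 (SE), and without control 4 it was 0.081 on that scale.

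**Figure D4:**
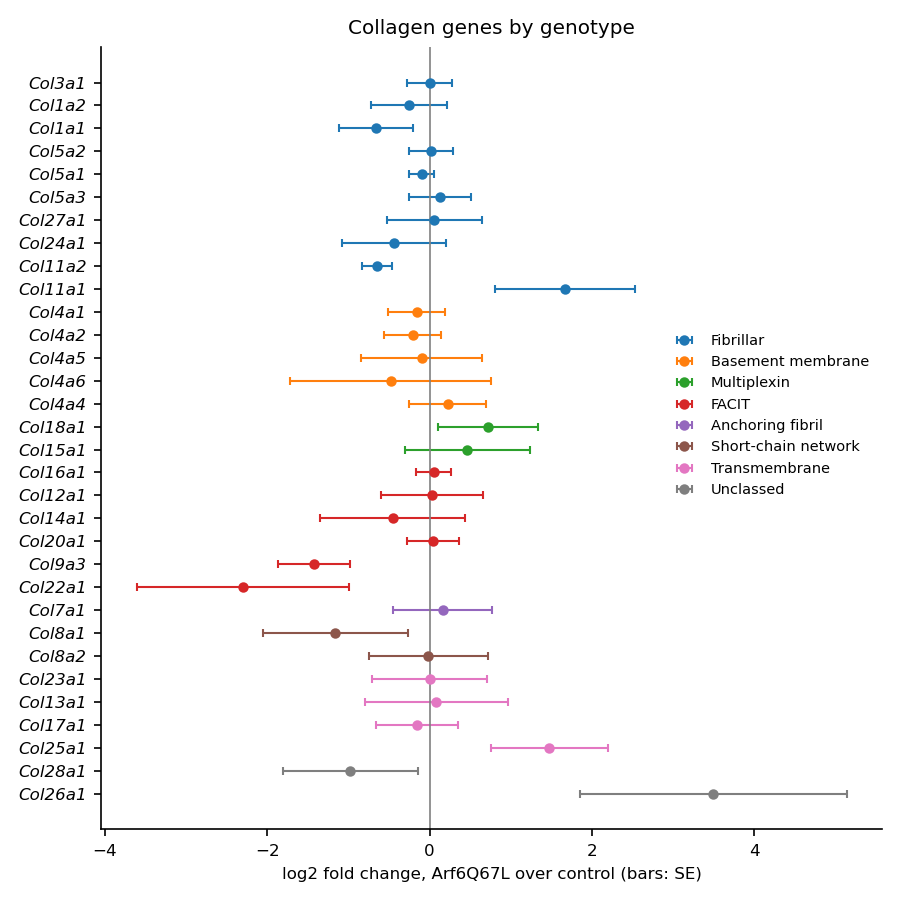
log2 fold change of the 32 tested collagen genes, Arf6Q67L over control, with bars for the SE and colours for the class. The fibrillar median is -0.050 and the basement membrane median -0.16, and 0 genes pass the edgeR threshold.

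The classes were set side by side by genotype. Medians of the log2 fold change were -0.050 for 10 fibrillar, -0.16 for 5 basement membrane and 0.031 for 17 other genes, against -0.0018 over all genes tested. Leaving out 1 tumour at a time moved the fibrillar median between -0.22 and 0.13 and the basement membrane median between -0.30 and 0.29. With Col7a1, Col15a1 and Col18a1 counted in the basement membrane class its median was 0.030. The sign of neither class median held under these choices.

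Ratios between chains within a tumour were compared for 9 pairs, by exact two-sided permutation of the 10 tumours (210 splits), adjusted over the 9. The ratio Col4a3/Col4a4 was not formed because Col4a3 missed the filter. None of the 9 ratios passed, adjusted or not. The log2 ratio of Col1a1 to Col1a2 was -1.30 ± 0.72 in Arf6Q67L tumours (SD, n = 6) and -0.72 ± 0.49 in controls (SD, n = 4), a difference of -0.58 (exact permutation p = 0.229, adjusted p = 0.664). It was -0.34 without control 1 and -0.34 without Arf6Q67L tumour 5. In CPM, Col1a1 ran from 0.175 to 0.644 times Col1a2 in Arf6Q67L tumours and from 0.484 to 1.01 times in controls. The lowest p was that of Col3a1 to Col1a1, whose log2 ratio was 3.13 ± 0.83 in Arf6Q67L tumours (SD, n = 6) and 2.20 ± 0.68 in controls (SD, n = 4) (exact permutation p = 0.114, adjusted p = 0.664). Col4a1 to Col4a2 was nearly fixed, at 0.46 ± 0.12 in Arf6Q67L tumours (SD, n = 6) and 0.43 ± 0.072 in controls (SD, n = 4) on the log2 scale (adjusted exact permutation p = 0.781). The ratio of collagen IV to collagen I, as Col4a1 to Col1a1, was 0.038 ± 0.74 in Arf6Q67L tumours (SD, n = 6) and -0.80 ± 1.13 in controls (SD, n = 4) (adjusted exact permutation p = 0.664). Adjusted exact permutation p-values of the other ratios lay between 0.664 and 0.781.

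Whether chains rise and fall together over the tumours was examined in 7 pairs, on log2 CPM, with permutation p-values adjusted over the 7. Col4a1 and Col4a2 tracked each other most closely. There r was 0.98 (adjusted permutation p = 7e-05) and rho 0.99 (adjusted permutation p = 7e-05) over 10 tumours, where the unadjusted p of 1e-05 is the smallest that the resampling can give. Without the 2 tumours farthest from the Col4a1 median r was 0.97, and within the 6 Arf6Q67L tumours it was 0.96 (adjusted exact permutation p = 0.0194). Within those 6 tumours rho was 0.94 and missed the threshold (adjusted exact permutation p = 0.0583). For Col4a5 and Col4a6 r was 0.89 (adjusted permutation p = 0.00276) and rho 0.85 (adjusted permutation p = 0.00667) over 10 tumours. Arf6Q67L tumour 1 had less Col4a6 than its Col4a5 level would place it, at 6.39 CPM beside 112 CPM. For Col3a1 and Col5a2, neighbours on chromosome 1 with 24614 bases between them, r was 0.82 (adjusted permutation p = 0.00793) and rho 0.84 (adjusted permutation p = 0.00667) over 10 tumours. Col5a1 and Col5a2 lie on different chromosomes, and there r was 0.77 (adjusted permutation p = 0.019) and rho 0.88 (adjusted permutation p = 0.00633) over 10 tumours.

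For Col1a1 and Col1a2, also on different chromosomes, r was 0.70 (adjusted permutation p = 0.0359) and rho 0.79 (adjusted permutation p = 0.0123) over 10 tumours. Arf6Q67L tumour 5 and control 1 lay farthest from the common line, tumour 5 with little Col1a1 (202 CPM) for its Col1a2 (1154 CPM) and control 1 with the reverse (486 and 483 CPM). For Col3a1 and Col1a1 r was 0.26 (adjusted permutation p = 0.47) and rho 0.56 (adjusted permutation p = 0.0956) over 10 tumours. That pair reached r = 0.70 without Arf6Q67L tumour 3 and control 4. For Col8a1 and Col8a2 r was 0.64 (adjusted permutation p = 0.0618) and rho 0.58 (adjusted permutation p = 0.0956) over 10 tumours. Without the 2 farthest tumours r was 0.71 for Col4a5 and Col4a6, 0.61 for Col3a1 and Col5a2, 0.71 for Col5a1 and Col5a2, 0.67 for Col1a1 and Col1a2 and 0.49 for Col8a1 and Col8a2.

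**Figure D5:**
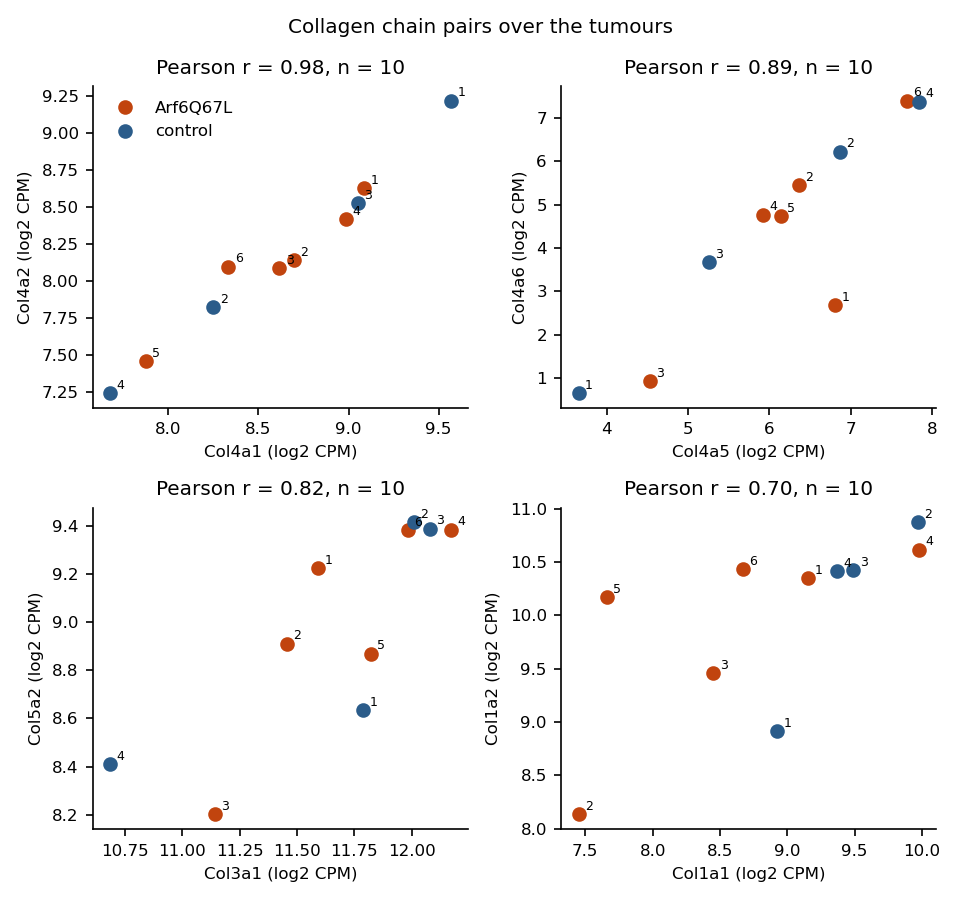
log2 CPM of 4 chain pairs over the 10 tumours, Arf6Q67L and control tumours in different colours with tumour numbers beside the points. Col4a1 and Col4a2 lie nearly on a line (r = 0.98), while Col1a1 and Col1a2 scatter more (r = 0.70), with tumours of both genotypes mixed along each trend.

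Genes that fold, cut, cross-link and bind collagen were looked at beside the chains, and 0 of them passed the edgeR threshold while Tgm2 and Itga10 passed in DESeq2. Over all genes tested, 4.65% were higher and 7.05% lower at an unadjusted p under 0.05, and DESeq2 called 2.06%. Of the folding and modifying enzymes, 5 of 19 tested genes had a positive fold change and 14 a negative one (median -0.12 on the log2 scale), and 0 higher and 1 lower passed an unadjusted p under 0.05. Ppib, a prolyl isomerase that speeds helix folding, stood at 184 ± 18.04 CPM in Arf6Q67L tumours (SD, n = 6) and 219.8 ± 28.3 CPM in controls (SD, n = 4), so -0.25 ± 0.11 (SE) on the log2 scale (edgeR adjusted p = 0.408). Serpinh1, the collagen chaperone of the endoplasmic reticulum, had -0.23 ± 0.18 (SE), P3h3 and P3h4 of the prolyl and lysyl modification complexes had -0.29 ± 0.21 (SE) and -0.12 ± 0.091 (SE), and the prolyl 3-hydroxylase P3h2 had 1.05 ± 0.51 (SE). Of the secretion and propeptide genes, 8 of 12 tested genes had a positive fold change and 4 a negative one (median 0.12 on the log2 scale), and 1 higher and 0 lower passed an unadjusted p under 0.05. Pcolce2, an enhancer of procollagen cleavage, stood at 22.2 ± 16.8 CPM in Arf6Q67L tumours (SD, n = 6) and 6.47 ± 2.501 CPM in controls (SD, n = 4) and 1.78 ± 0.71 (SE) on the log2 scale (edgeR adjusted p = 0.386). On the same scale its relative Pcolce had -0.18 ± 0.12 (SE), the procollagen-cleaving protease Tll1 -0.90 ± 0.63 (SE) and Mia3, which loads procollagen into transport carriers, 0.20 ± 0.14 (SE).

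Of the cross-linking genes, 3 of 7 tested genes had a positive fold change and 4 a negative one (median -0.12 on the log2 scale), and 0 higher and 1 lower passed an unadjusted p under 0.05. Tgm2, a transglutaminase, stood at 92.1 ± 50.6 CPM in Arf6Q67L tumours (SD, n = 6) and 303 ± 119 CPM in controls (SD, n = 4), so -1.72 ± 0.43 (SE) on the log2 scale, at an adjusted p of 0.248 in edgeR and of 0.0149 in DESeq2. Pxdn, the peroxidase that cross-links collagen IV, had 0.49 ± 0.29 (SE), and of the lysyl oxidases Lox had -0.16 ± 0.57 (SE), Loxl2 0.21 ± 0.40 (SE) and Loxl3 -0.38 ± 0.31 (SE). Of the receptors, 5 of 9 tested genes had a positive fold change and 4 a negative one (median 0.048 on the log2 scale), and 1 higher and 1 lower passed an unadjusted p under 0.05. Itga10, a collagen-binding integrin chain best known from cartilage, stood at 8.69 ± 2.301 CPM in Arf6Q67L tumours (SD, n = 6) and 4.34 ± 0.538 CPM in controls (SD, n = 4), so 1.001 ± 0.23 (SE) on the log2 scale, at an adjusted p of 0.233 in edgeR and of 0.00351 in DESeq2. Itga2, a further collagen-binding integrin chain, had 1.60 ± 0.72 (SE), the inhibitory leukocyte receptor Lair1 -0.78 ± 0.32 (SE) and the shared beta chain Itgb1 0.20 ± 0.15 (SE).

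Marker levels of cells that could supply collagen are given beside these results. Summed fibroblast markers ran from 1447 to 2687 CPM in Arf6Q67L tumours and from 722 to 2123 CPM in controls, with 8 of 10 markers above 0 in fold change and a median of 0.45 on the log2 scale. Pdgfra, a receptor of fibroblasts, stood at 850.0 ± 358 CPM in Arf6Q67L tumours (SD, n = 6) and 585 ± 197 CPM in controls (SD, n = 4). Summed pericyte and smooth muscle markers ran from 128 to 277 CPM in Arf6Q67L tumours and from 202 to 271 CPM in controls, with 6 of 9 negative, 5 of them at an unadjusted p under 0.05, and a median of -0.98. DESeq2 called Acta2 and Mylk of these lower in Arf6Q67L tumours. Over all genes 7.05% were lower at an unadjusted p under 0.05, and DESeq2 called 1.28% lower. Of 8 endothelial markers 7 were negative, 4 of them at an unadjusted p under 0.05, at a median of -0.74, and DESeq2 called Pecam1 and Emcn lower. Macrophage markers summed from 421 to 760.3 CPM in Arf6Q67L tumours and from 516 to 1533 CPM in controls, T cell markers from 11.5 to 55.2 CPM in Arf6Q67L tumours and from 20.5 to 206 CPM in controls, and skeletal muscle markers from 10.6 to 535 CPM in Arf6Q67L tumours and from 1.198 to 772 CPM in controls. All 4 T cell markers were negative (3 at an unadjusted p under 0.05), at a median of -2.43, as were all 4 adipocyte markers (3 likewise), at -2.65. The T cell sum was high in controls 2 and 4 (148 and 206 CPM), while controls 1 and 3 (23.3 and 20.5 CPM) lay inside the Arf6Q67L range. Of 5 macrophage markers 4 were negative, with 3 lower and 1 higher at that p, at a median of -0.75. Of 5 muscle markers 4 were positive, at 0.93, with 0 at that p. Schwann cell markers summed to 3.898 to 10.3 CPM in Arf6Q67L tumours and 4.36 to 13.3 CPM in controls, and adipocyte markers to 0.568 to 4.22 CPM in Arf6Q67L tumours and 0.0705 to 46.03 CPM in controls, the highest being control 4. In these lists 0 genes passed the edgeR threshold, and their part in the collagen levels was not tested.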

How the data were processed

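The 1 deposited table held raw counts per gene, not normalized by the authors, per the file headers and values (whole numbers). Per the submitters' processing notes the build was GRCm38 and the tools included featureCounts 1.5.1, STAR 2.5.2b and DESeq2 1.18.0, their roles not given. Per the labels' protocols, RNA came from a Qiagen RNAeasy Plus Universal Mini kit and libraries from the Illumina TruSeq Stranded mRNA kit with poly(A) selection. No source used here gives the strand setting or the treatment of multi-mapping reads. All 10 columns were mapped by library identifier and 0 were left over. Symbols, exon lengths and coordinates came from GENCODE M21 (GRCm38), matching 99.7% of 52636 identifiers. No pair of libraries in a group looked like a repeat (chi-square per gene of at least 71.1).

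The test was edgeR's robust quasi-likelihood fit (version 4.0.16, R 4.3.3) after TMM scaling. Genes with low counts were removed by filterByExpr (min.count 10), and p-values were adjusted by Benjamini-Hochberg over the 17286 kept, at a threshold of 0.05. SE is the fold change over the root of F. log2 CPM uses a prior count of 2. Exact permutation tests between genotypes took the difference in mean log2 CPM or mean log2 ratio over 210 splits, not the edgeR fold change. Correlations over the 10 tumours used 100000 resamples. DESeq2 1.42.0, limma-voom (limma 3.58.1), RLE factors, no filter and leaving out each tumour were alternatives. On simulated data for 6 tumours against 4 (17286 genes), 100 genes were given each change. There edgeR found 32% at 2-fold and 63% at 4-fold (6 false), while DESeq2 found 58% and 80% (63 false). The changed genes were drawn from all genes tested, whose median SD of log2 CPM was 0.35, against 1.10 for the collagen genes. These rates thus do not hold for the collagen genes. Genes named with values were, by rule, the 2 highest per length in each class, the 6 of lowest p in each direction, the chains of each ratio and up to 4 genes of lowest p per pathway list. Members, lists and tests were chosen with earlier results of these data known. Serpinh1, Lox and the named cell markers were added after values were seen.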

Additional observations from a re-analysis of the deposited data

Results flagged for a closer look

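In 82 groups of values (32 genes and 9 chain ratios in each genotype), 5 held a tumour whose distance from its nearest neighbour was large for the range of the group. Chance alone marks about 1 in 20 groups. Within the Arf6Q67L group, Col20a1 was at a log2 CPM of -0.66 in tumour 6, against 0.49 to 0.79 in the others. Col9a3 was at -0.083 in tumour 5, against -1.84 to -1.20. Col28a1 was at 2.02 in tumour 4, against -1.12 to -0.73. The log2 ratio of Col12a1 to Col14a1 was 5.42 in tumour 2, against 2.82 to 3.42 in the others. Among controls, the log2 ratio of Col1a1 to Col1a2 was 0.0099 in control 1, against -1.05 to -0.90 in the other 3.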

How the results depend on the processing

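No collagen gene was past the edgeR threshold with RLE factors, with no low-count filter or without any 1 tumour. DESeq2 called 403 genes, of them 1 collagen gene, and limma-voom 2 genes, of them 0 collagen genes. Over the tumours left out the count of all genes ran from 0 to 1. Collagen genes with an unadjusted p under 0.05 numbered 2 in edgeR (11.7% of all genes), 5 in DESeq2 (14.1%) and 2 to 5 over the tumours left out (8.21% to 13.6%). The count was 5 without Arf6Q67L tumour 3 (12.2%), 4 without Arf6Q67L tumour 4 (12.7%) and 4 without control 3 (11.2%).

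Many fold changes changed sign between settings, among them those of Col22a1, Col28a1 and Col4a6 when 1 tumour was left out. With limma-voom the genes were Col4a1 (0.035), Col4a5 (0.30), Col4a6 (0.0034), Col4a4 (-0.12), Col12a1 (-0.14), Col5a2 (-0.065), Col24a1 (0.28), Col15a1 (-0.39), Col8a2 (0.00076) and Col13a1 (-0.53). With DESeq2 they were Col3a1 (0.012), Col8a2 (0.00090) and Col23a1 (0.012), with RLE factors Col3a1 (0.011) and Col23a1 (0.0100), and with no filter Col3a1 (0.013), Col8a2 (0.00100) and Col23a1 (0.014). Leaving out 1 tumour turned the sign of 23 genes, whose log2 fold changes ran over -0.21 to 0.58 for Col7a1, -0.39 to 0.22 for Col4a1, -0.44 to 0.22 for Col4a2, -0.50 to 0.75 for Col4a5, -1.58 to 0.65 for Col4a6, -0.28 to 0.39 for Col4a4, -0.094 to 0.27 for Col16a1, -0.48 to 0.29 for Col12a1, -1.32 to 0.059 for Col14a1, -0.13 to 0.20 for Col20a1, -2.70 to 0.85 for Col22a1, -0.22 to 0.14 for Col3a1, -0.13 to 0.18 for Col5a2, -0.20 to 0.030 for Col5a1, -0.11 to 0.25 for Col5a3, -0.31 to 0.46 for Col27a1, -0.82 to 0.13 for Col24a1, -0.36 to 0.75 for Col15a1, -0.45 to 0.59 for Col8a2, -0.79 to 0.79 for Col23a1, -1.10 to 0.48 for Col13a1, -0.69 to 0.090 for Col17a1 and -2.12 to 0.081 for Col28a1. Of 443 fold changes under an alternative, 370 kept their sign and their side of the threshold, 72 changed sign and 1, Col11a2 in DESeq2, passed. The difference in the log2 ratio Col12a1/Col14a1 ran from -0.57 to 1.12 when 1 tumour was left out, and no ratio passed under any setting. The cause of these changes was not tested.

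Within the 6 Arf6Q67L tumours r was 0.71 (adjusted exact permutation p = 0.211) for Col1a1 and Col1a2, 0.63 (adjusted exact permutation p = 0.243) for Col5a1 and Col5a2, 0.85 (adjusted exact permutation p = 0.112) for Col3a1 and Col5a2 and 0.79 (adjusted exact permutation p = 0.162) for Col4a5 and Col4a6, no longer past the threshold with fewer samples. In the same tumours and order of pairs, rho was 0.89, 0.94, 0.83 and 0.60. The adjusted exact permutation p-values of rho were 0.0778, 0.0583, 0.102 and 0.282. Without the 2 farthest tumours r moved by more than 0.2 for Col3a1 and Col1a1 (0.70) and Col3a1 and Col5a2 (0.61). No paired analysis was possible because tumour numbers were given in accession order and pair nothing. Members under about 0.403 CPM were limited by depth.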
